A study of Mus musculus with 13 samples.

Results

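Sparc, Pcdha3, Fem1b, Purg, Clasp2, Dpysl2, Atp1b1 and Arrdc3 are 8 mouse genes whose transcripts hold Argonaute (AGO) peaks with a match to the seed of miR-29. They were taken as all peaks that the deposited table assigns to these 8 gene symbols: 81 of its 18284 peaks, of which 60 lie in exons and 21 in introns or partly outside exons. The genes were chosen by the tag totals of their peaks with a miR-29 match, summed over all libraries, so high coverage of a matching peak is how they were selected and not a result. The data are AGO CLIP libraries, in which RNA crosslinked to AGO by ultraviolet light is recovered with an AGO antibody and sequenced as short tags. Cortex came from wild-type C57BL6 mice aged 7 to 8 weeks in every group. The ipsilateral group (5 libraries) is cortex from the side of a middle cerebral artery occlusion (MCAO) of 35 min with a filament, followed by 3 h of recovery. The contralateral group (4 libraries) is cortex from the opposite hemisphere after the same operation and times, and the sham group (4 libraries) is cortex after anesthesia and exposure of the arteries with no filament. All 13 libraries pooled the high and low molecular weight AGO complexes, and each replicate number stands for a separate day of surgery. No antibody-free or input library is analysed here, so a difference in tags cannot be told apart from a difference in the amount of the transcript. In bulk cortex, fewer cells of a type and less RNA per cell also cannot be told apart.

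The miR-29 family regulates transcripts by loading into AGO and pairing the bases near its 5' end, the seed, with complementary letters that lie mostly in 3' untranslated regions (3'UTRs). In other tissues it is best known for repressing collagen and other matrix genes, and in brain it becomes abundant as neurons and glia mature. An AGO peak marks where the complex was crosslinked, and a seed match inside it is a candidate partner and no proof of which miRNA was bound.

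The sequences that define the selection are the 3 mature miR-29 strands and the transcript stretches that end in their seed matches. The mature strands, from RefSeq (GRCm38.p6), share 1 seed, bases 2 to 8, given in capitals.
mmu-miR-29a-3p: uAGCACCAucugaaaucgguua
mmu-miR-29b-3p: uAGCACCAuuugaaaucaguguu
mmu-miR-29c-3p: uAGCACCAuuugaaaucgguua
Transcript sites were read 5' to 3' from the GENCODE M21 transcripts (GRCm38, the same assembly as the mm10 build of the peak table), with the seed match in capitals. A full match to the seed is TGGTGCT and a match to bases 2 to 7 followed by an A is GGTGCTA; both together form the 8mer. Only the transcript strand was searched, and the motifs share the letters GGTGCT.
Sparc first site, chr11:55395469-55395490, minus strand: tccgcctggggataaGGTGCTA
Sparc second site, chr11:55395436-55395457, minus strand: actgaatacattaacGGTGCTA
Fem1b, chr9:62796057-62796078, minus strand: aaaatcgtttaatgTGGTGCTA
Purg first site, chr8:33417275-33417296, plus strand: gtcctaaactcctgTGGTGCTA
Purg second site, chr8:33417300-33417321, plus strand: cctccataatccaaTGGTGCTt
Clasp2, chr9:113899531-113899552, plus strand: aaaactttccaggaTGGTGCTA
Dpysl2, chr14:66804386-66804407, minus strand: gtttctgttaagatTGGTGCTA
Atp1b1, chr1:164437419-164437440, minus strand: gaggcatcatgcgcTGGTGCTg
Arrdc3 first site, chr13:80883637-80883658, plus strand: ttttgttataatcaTGGTGCTg
Arrdc3 second site, chr13:80895907-80895928, plus strand: tgtaatcttttattTGGTGCTg
Pcdha3 held an 8mer as well and is named without sequence. Of the 10593 exonic peaks whose transcript sequence could be read, 200 (1.89%) held a miR-29 match, in 190 genes. Only 2 of those peaks held 2 matches: the Sparc peak, with a pair of GGTGCTA matches, and the Purg peak, with an 8mer and a full seed match without the following A.

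The sites fell in different parts of the transcripts. Those of Sparc, Purg, Dpysl2 and Atp1b1 and the second site of Arrdc3 lay in peaks annotated to the 3'UTR. The Fem1b site lay in a peak across the end of the coding sequence and the 3'UTR, the Clasp2 site in a coding exon, and the first Arrdc3 site in a peak across the 5' untranslated region and the coding sequence. In Sparc, Pcdha3, Fem1b, Purg, Clasp2 and Arrdc3, the most covered exonic peak over the 13 libraries was a peak with a miR-29 match. In Dpysl2 and Atp1b1 it was not: their match peaks held 48 and 46 tags, against 265 and 126 tags in their most covered peaks. The most covered peak of Dpysl2 held no match to any of the 27 miRNA families searched, and that of Atp1b1 held a miR-9 match. Ranked by the most covered peak with a miR-29 match among the 190 genes, Sparc was at place 1, Pcdha3 at 2, Fem1b at 3, Purg at 5, Clasp2 at 6, Dpysl2 at 8, Atp1b1 at 9 and Arrdc3 at 13.

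Depth set how finely these genes could be compared. Exonic peaks held 2701 tags (ipsilateral replicate 5) to 27072 tags (contralateral replicate 1) per library, and the 8 genes held 2852 exonic tags in all, 1351 of them (47.4%) in the most covered peaks. Levels are therefore given as tags per 10000 exonic tags of the library; a count of 0 allows up to 11.1 such units in ipsilateral replicate 5 and 1.11 in contralateral replicate 1, for counting error only. The 3 libraries of replicate 1 stood apart, with 30.4% to 41.2% of their peak tags in exons, against 46.0% to 71.5% in the other 10. Neuron and astrocyte markers were present in every group. Summed neuron markers (12 of 15 with tags) ranged from 181 to 350 per 10000 exonic tags in ipsilateral, 300 to 366 in contralateral and 296 to 336 in sham libraries. Astrocyte markers (12 of 16) ranged from 128 to 229 in ipsilateral, 204 to 284 in contralateral and 171 to 235 in sham libraries. Oligodendrocyte markers (5 of 14 with tags) ranged from 14.8 to 47.3 in ipsilateral, 45.6 to 75.1 in contralateral and 43.9 to 60.8 in sham libraries. Microglia, vascular and blood markers were nearly absent, with 11 of 12, 14 of 16 and 10 of 11 genes at 0 tags and sums of at most 6.45 in any library. The part of these marker levels in the results that follow was not tested.

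Sparc encodes a secreted matricellular glycoprotein that binds collagen. Its most covered peak (chr11:55395404-55395483, 3'UTR) carried 453 of the gene's 600 exonic tags, or 75.5%, and ranked 5 among all exonic peaks. In tags per 10000 exonic tags, that peak had 36.8, 9.36, 20.1, 2.15 and 25.9 in ipsilateral libraries (replicates 1 to 5), 32.5, 9.40, 28.9 and 34.6 in contralateral libraries (replicates 1, 2, 4 and 5), and 41.4, 11.3, 14.6 and 16.2 in sham libraries (replicates 1, 2, 3 and 5). Replicate 1 was the highest ipsilateral and sham library, ipsilateral replicate 4, with 1 tag, was the lowest of all, and the 3 groups overlapped. The ipsilateral mean was 18.9 ± 13.6 (SD, n = 5), against 26.3 ± 11.5 in contralateral and 20.9 ± 13.8 in sham libraries (n = 4 each). The exact permutation p over libraries was 0.825 for ipsilateral against sham, 0.397 for ipsilateral against contralateral and 0.514 for contralateral against sham. The other 4 Sparc peaks, which held 13 to 71 tags each and no miR-29 match, summed to 6.39 ± 4.34 in ipsilateral, 5.42 ± 3.65 in contralateral and 8.12 ± 2.62 in sham libraries. Ipsilateral replicate 5 had no tag in any of them and 7 in the most covered peak.

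**Figure D1:**
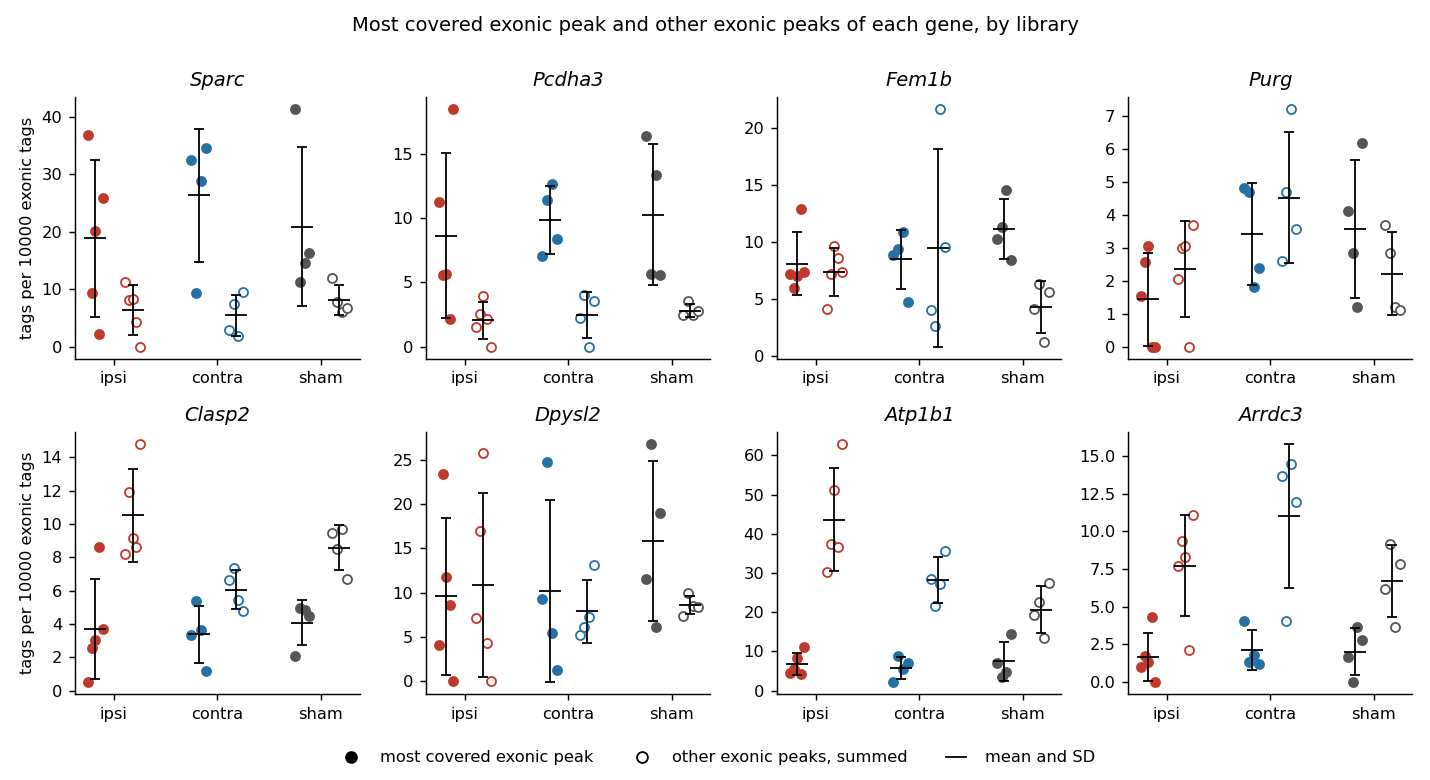
Tags per 10000 exonic tags (y axis) of the most covered exonic peak (filled circles) and of all other exonic peaks summed (open circles) for the 8 genes, 1 circle per library, by group (ipsi, ipsilateral; contra, contralateral), with the mean and SD in black. Groups overlap for every filled circle set; the open circles of Atp1b1 in the 5 ipsilateral libraries (30.2 to 62.9) lie above all 4 sham libraries (13.4 to 27.5).

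Fem1b encodes the substrate-recognition subunit of a cullin E3 ubiquitin ligase. Its most covered peak (chr9:62796023-62796102) held 168 of 286 exonic tags (58.7%). Its level was 7.16, 5.96, 7.00, 12.9 and 7.41 per 10000 exonic tags in ipsilateral libraries, 8.87, 9.40, 10.8 and 4.77 in contralateral libraries, and 10.3, 11.3, 14.6 and 8.41 in sham libraries. All ipsilateral libraries but replicate 4 lay below the lowest sham library. The means were 8.09 ± 2.75 in ipsilateral and 11.1 ± 2.59 in sham libraries (exact permutation p = 0.175). The 4 other peaks went the opposite way, at 7.39 ± 2.08 in ipsilateral and 4.32 ± 2.27 in sham libraries (exact permutation p = 0.0952), so that the summed tags of the gene were level, at 15.5 in both. Contralateral replicate 4 had 21.7 in these peaks, of which 8 of 12 tags were in the peak at chr9:62794894-62794973; the other contralateral libraries had 2.69 to 9.53.

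Pcdha3 stands for a clustered protocadherin alpha gene, a family of neuronal adhesion proteins that join a variable first exon to shared last exons. All 3 of its peaks lie in exons that 12 other Pcdha genes share, and their row names carry the gene ID of Pcdha1, so the tags belong to the cluster and not to 1 named gene. The most covered peak held 173 of 225 exonic tags (76.9%). Its level was 11.2, 5.53, 5.68, 2.15 and 18.5 per 10000 exonic tags in ipsilateral, 7.02, 11.4, 12.6 and 8.34 in contralateral, and 16.4, 5.65, 13.4 and 5.60 in sham libraries. The groups overlapped, and the means of 8.63 in ipsilateral and 10.3 in sham libraries differed by less than the SD of either (6.42 and 5.49). Counted together, the 5 protocadherin alpha genes with tags summed to 15.1 ± 7.40 in ipsilateral, 15.0 ± 3.77 in contralateral and 18 ± 3.30 in sham libraries.

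Purg encodes a single-stranded nucleic acid binding protein of the Pur family. Its most covered peak (chr8:33417286-33417365, 3'UTR), the peak with the pair of miR-29 matches, held 65 of 121 exonic tags (53.7%). The peak had 3, 6, 7, 0 and 0 tags in ipsilateral libraries, 13, 7, 1 and 2 in contralateral libraries, and 10, 4, 1 and 11 in sham libraries. Per 10000 exonic tags that is 1.43 ± 1.42 in ipsilateral, 3.42 ± 1.55 in contralateral and 3.58 ± 2.09 in sham libraries. The 2 ipsilateral libraries at 0 are the shallowest of the study, where a count of 0 allows up to 6.45 (replicate 4) and 11.1 (replicate 5), so their zeros do not separate them from the other groups. Over all exonic peaks of Purg, ipsilateral libraries averaged 3.79 ± 2.39 and contralateral libraries 7.94 ± 1.59 (exact permutation p = 0.0317 unadjusted, 0.422 adjusted over 425 genes). On the 4 shared surgery days ipsilateral was lower than contralateral each time, by -3.81, -3.87, -9.03 and -2.26 as differences, for which a sign-flip test cannot go below an exact p of 0.125. With single libraries left out the unpaired exact p ran from 0.0286 to 0.0714 and was under 0.05 only without ipsilateral replicate 3 or contralateral replicate 5. Purg also had 20 peaks outside exons with 163 tags, more than its exons. With them included, the edgeR log2 fold change of ipsilateral over contralateral was 0.11, against -0.80 for exons alone. Exons here follow the deposited region. The peaks at chr8:33387497-33387576, chr8:33393614-33393693 and chr8:33396546-33396625, counted as exonic, overlapped no exon in the gene annotation searched. In that order their means were 0.712, 0.712 and 0.185 in contralateral libraries, against 0.173, 0.0875 and 0.275 in ipsilateral libraries.

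Clasp2 encodes a protein that binds growing microtubule ends. Its most covered peak (chr9:113899531-113899610, coding sequence, with an 8mer) held 63 tags, against 62 tags in its next peak, which is in the 3'UTR (chr9:113919319-113919398) and held no match to the 27 families. The match peak had 0.512, 2.55, 3.06, 8.60 and 3.70 per 10000 exonic tags in ipsilateral, 3.32, 5.37, 3.61 and 1.19 in contralateral, and 2.05, 4.95, 4.86 and 4.48 in sham libraries. The lowest and the highest of the 13 values were both ipsilateral. The other 6 peaks summed to 8.19, 11.9, 9.18, 8.60 and 14.8 in ipsilateral libraries and to 6.65, 7.38, 5.42 and 4.77 in contralateral libraries, without overlap (means 10.5 ± 2.80 and 6.05 ± 1.18; exact permutation p = 0.0159, the smallest this design can give; 0.431 adjusted over 425 genes). Sham libraries overlapped both groups and averaged 8.59 ± 1.35. Over all 425 genes with at least 100 exonic tags and 2 exonic peaks, 3.53% had other peaks without overlap in this comparison. Without the 3 libraries of replicate 1 the difference was 5.27. Separate groups stay separate when libraries are left out, so the exact permutation p was bound to be 0.0571, the smallest then possible. The differences within the 4 shared days, 1.54, 4.53, 3.19 and 10.0, could for the same reason only be positive. With all peak tags as the library size, however, the groups did overlap. Ipsilateral replicate 1, with 16 of 64216 peak tags, was then below every contralateral library. The difference was then 2.95 per 10000 peak tags.

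Dpysl2 encodes a tubulin-binding protein of growing axons. Its most covered peak (chr14:66803964-66804043, 3'UTR), without a miR-29 match, had 4.09, 23.4, 11.8, 8.60 and 0 per 10000 exonic tags in ipsilateral, 9.24, 24.8, 5.42 and 1.19 in contralateral, and 11.5, 26.9, 6.07 and 19.1 in sham libraries. Replicate 2 was highest in every group, and the groups overlapped. Its match peak (chr14:66804334-66804413) had 2, 9, 10, 1 and 0 tags in ipsilateral, 2, 2, 1 and 1 in contralateral and 5, 6, 5 and 4 in sham libraries. Contralateral libraries lay below all sham libraries, at means of 1.27 ± 0.44 and 3.65 ± 1.89 per 10000 exonic tags (exact permutation p = 0.0286, the smallest that 4 against 4 libraries can give). The fitted log2 fold change of contralateral over sham was -1.55 ± 0.75 (SE; edgeR adjusted p = 1). Over single exonic peaks of the whole table, 2.12% did not overlap between contralateral and sham. With all peak tags as the library size the exact permutation p was 0.114. Leaving out any 1 of the 8 libraries cannot make separate groups overlap. The exact permutation p was then bound to be 0.0571, the smallest possible. A Dpysl2 peak nearby (chr14:66804475-66804554) held 22 tags, none of them in a sham library; its mean was 1.82 in ipsilateral and 0.0923 in contralateral libraries, and 15 of the 22 tags came from ipsilateral replicate 2.

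**Figure D2:**
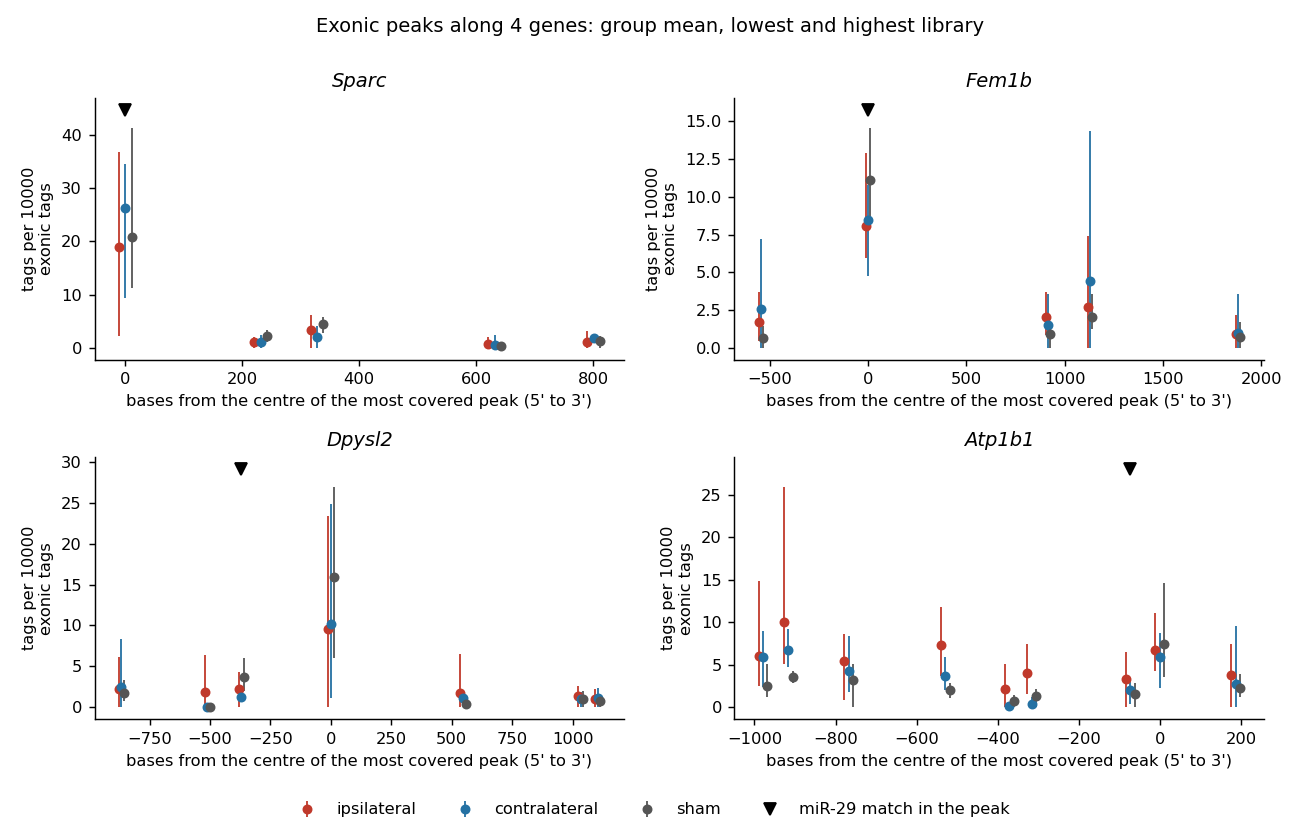
Exonic peaks of Sparc, Fem1b, Dpysl2 and Atp1b1 by distance from the centre of the gene's most covered peak (x axis, bases, 5' to 3'), with the group mean of tags per 10000 exonic tags (y axis, circles) and the lowest and highest library (bars). Triangles mark peaks with a miR-29 match: at the most covered peak in Sparc and Fem1b, and beside it in Dpysl2 and Atp1b1 (distant peaks are not drawn).

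Atp1b1 encodes the beta-1 subunit of the sodium pump, which the pump needs to reach the membrane. It had the most exonic tags of the 8 genes, 717 in 10 peaks, and the most even spread, with 126 (17.6%) in the most covered peak. That peak (chr1:164437279-164437358, 3'UTR) averaged 6.77 ± 2.89 in ipsilateral, 5.88 ± 2.79 in contralateral and 7.48 ± 4.93 in sham libraries (exact permutation p = 0.762 for ipsilateral against sham). The other 9 peaks together had 30.2, 37.5, 51.2, 36.6 and 62.9 per 10000 exonic tags in ipsilateral libraries, 28.4, 21.5, 27.1 and 35.8 in contralateral libraries, and 19.3, 22.6, 13.4 and 27.5 in sham libraries. Every ipsilateral library lay above every sham library, while ipsilateral and contralateral libraries overlapped. The ipsilateral mean of 43.7 ± 13.2 stood against 20.7 ± 5.92 in sham libraries (exact permutation p = 0.0159 unadjusted, 0.547 adjusted over 425 genes) and 28.2 ± 5.87 in contralateral libraries (exact permutation p = 0.0317 unadjusted, 0.431 adjusted). Of the 425 genes, 1.18% had other peaks higher without overlap in ipsilateral than in sham libraries. On the 4 surgery days with both libraries, ipsilateral exceeded sham by 10.9, 14.8, 37.8 and 35.5. With no overlap between the groups, these differences could only be positive. A sign-flip test over 4 days cannot go below an exact p of 0.125. Without replicate 1, or without the shallow ipsilateral replicates 4 and 5, ipsilateral libraries exceeded sham by 25.9 and 18.9. Groups that are separate stay separate when libraries are left out. The exact permutation p was therefore bound to be 0.0571, the smallest that such a split can give. Scaled by all peak tags in place of exonic tags, the groups did overlap. Ipsilateral replicate 1 was then below sham replicates 2 and 5, though the exact p stayed under 0.05. Against contralateral, in exonic tags with single libraries left out, the exact p ran from 0.0286 to 0.0714. It was under 0.05 only without ipsilateral replicate 1 or contralateral replicate 5.

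Of the 10 Atp1b1 peaks, 2 had every ipsilateral library above every sham library. The peak at chr1:164437808-164437887 averaged 7.27 ± 3.44 in ipsilateral, 3.73 ± 1.64 in contralateral and 2.01 ± 0.972 in sham libraries, with ranges of 3.70 to 11.8, 2.01 to 5.96 and 1.12 to 2.87. The peak at chr1:164438196-164438275 averaged 10.0 ± 8.89 in ipsilateral, 6.78 ± 1.93 in contralateral and 3.59 ± 0.594 in sham libraries; ipsilateral replicate 5 alone stood at 25.9, and without it the ipsilateral mean was 6.08, below the contralateral mean. This peak was also higher without overlap in contralateral than in sham libraries, where 2.12% of all exonic peaks did not overlap in either direction. Between ipsilateral and sham libraries, groups without overlap, in either direction, were found for 1.58% of all 11467 exonic peaks with a gene. The first was higher by 1.79 ± 0.60 on the log2 scale (SE; edgeR adjusted p = 0.604) and the second by 1.15 ± 0.61 (edgeR adjusted p = 0.668). Neither held a miR-29 match; the second held a miR-218 8mer that also lies in the overlapping next peak. A further peak (chr1:164437595-164437674), among those that overlap Nme7, averaged 3.99 in ipsilateral, 0.390 in contralateral and 1.36 in sham libraries, without overlap between ipsilateral and contralateral libraries, as in 0.924% of all exonic peaks (log2 fold change 3.29 ± 0.87, SE; edgeR adjusted p = 0.157). The miR-29 match peak (chr1:164437352-164437431) averaged 3.28 ± 2.29 in ipsilateral and 1.58 ± 1.26 in sham libraries (exact permutation p = 0.206).

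The 3' end of Atp1b1 overlaps an exon of Nme7 on the opposite strand. Of its 10 peaks, 5, including the most covered peak and the miR-29 match peak, overlap it, and their row names carry the gene ID of Nme7. The peak table has no strand column, and among exonic peaks with a strand letter in the row name that letter paired with the gene's strand in 51.4%, so tags of the 2 genes cannot be told apart there. The 5 peaks with the Atp1b1 ID had 22.5, 20.4, 29.3, 28.0 and 51.8 per 10000 exonic tags in ipsilateral libraries and 12.3, 17.0, 10.9 and 19.1 in sham libraries, again without overlap (means 30.4 ± 12.5 and 14.8 ± 3.83; exact permutation p = 0.0159). Contralateral libraries averaged 22.9 ± 4.46, and the exact p against them was 0.286. The 5 peaks with the Nme7 ID overlapped between groups, at 20 ± 7.5 in ipsilateral, 11.1 ± 7.28 in contralateral and 13.4 ± 7.00 in sham libraries. Scaled by all peak tags, ipsilateral and sham libraries also overlapped in the 5 peaks with the Atp1b1 ID. Ipsilateral replicate 1 was then below sham replicates 2 and 5.

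**Figure D3:**
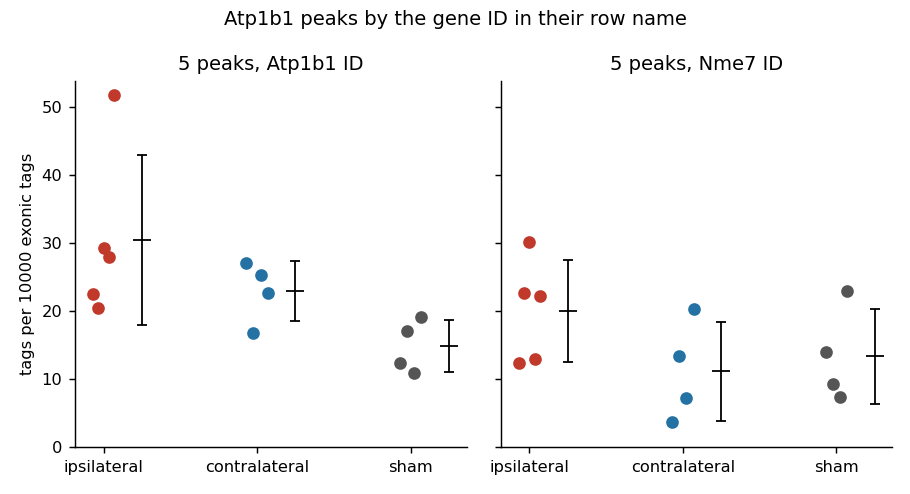
Tags per 10000 exonic tags (y axis) in the 5 Atp1b1 peaks whose row name carries the Atp1b1 gene ID (left) and the 5 whose row name carries the Nme7 gene ID (right), 1 circle per library by group, with mean and SD. On the left all 5 ipsilateral libraries (20.4 to 51.8) lie above all 4 sham libraries (10.9 to 19.1); on the right the groups overlap.

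Arrdc3 encodes an alpha-arrestin, an adaptor between membrane proteins and ubiquitin ligases. Its 204 exonic tags were spread over 15 peaks, 38 (18.6%) of them in the most covered peak (chr13:80883614-80883693). That peak had 2, 4, 3, 2 and 0 tags in ipsilateral, 11, 2, 1 and 1 in contralateral and 4, 0, 3 and 5 in sham libraries, too few to order the groups. The 14 other peaks averaged 7.72 ± 3.37 in ipsilateral, 11 ± 4.78 in contralateral and 6.71 ± 2.39 in sham libraries. The largest Arrdc3 peak of all lay outside its exons, with 322 tags, and overlapped an exon of 1700023H06Rik on the opposite strand. It held 89, 14, 23, 11 and 1 tags in ipsilateral, 58, 17, 4 and 0 in contralateral and 75, 11, 10 and 9 in sham libraries. In tags not scaled for depth, replicate 1 was highest in each group. Per 10000 peak tags it was highest in contralateral (8.82) and sham (10.6) libraries. Among ipsilateral libraries, replicate 4 (15.5) then stood above replicate 1 (13.9).

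The comparison of each gene's most covered peak with its other exonic peaks was made over all 8. Ipsilateral libraries had a lower mean share of tags in the most covered peak than sham libraries in 8 of 8 genes, while 50.4% of the 425 genes were lower. The share was 52.2 ± 9.33% in ipsilateral and 71.9 ± 14.4% in sham libraries for Fem1b and 13.1 ± 1.66% and 25.4 ± 8.76% for Atp1b1, each with an unadjusted exact permutation p of 0.0476 (0.868 adjusted over all genes). The most covered Atp1b1 peak lies where tags of Atp1b1 and Nme7 cannot be told apart, so its share may mix the tags of both genes. For Purg the share was 34.8 ± 23.4% in 4 ipsilateral libraries and 59.3 ± 16.9% in sham libraries, since ipsilateral replicate 4 had no exonic Purg tag. The ipsilateral value includes 0% of a single tag in replicate 5; without it the difference was -13.0 in place of -24.6 percentage points, without sham replicate 5 it was -16.1, and with 3'UTR peaks only it was -0.162. The other 5 genes differed by -1.84 (Pcdha3) to -13.2 (Dpysl2) percentage points, each within the SD of a group; Dpysl2 had no exonic tag in ipsilateral replicate 5, which has no share. Without ipsilateral replicate 4, which held 3 Sparc tags and 2 Pcdha3 tags, the difference was 5.69 points for Sparc and 3.93 for Pcdha3, and the count was 6 of 8. The groups overlapped for all 8 shares, as in all but 1.88% of genes. Against contralateral libraries the ipsilateral share was lower in 7 of 8 genes (48.9% of all genes), and the contralateral share was lower than sham in 5 of 8 (51.3% of all genes). Each comparison shares a group of libraries with the others, and all 8 genes were counted in the same libraries, so these counts are not independent. The levels given next use the same tags as these shares.

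The level of the most covered peak itself had a lower mean in ipsilateral than in sham libraries in 8 of 8 genes (52.7% of all genes), in ipsilateral than in contralateral libraries in 6 of 8 (52.7%), and for contralateral against sham in 6 of 8 (49.4%). None of the 8 had an exact permutation p under 0.05 for that level, against 5.65%, 6.82% and 1.65% of all genes in the same order, and none was without overlap, against 0.706%, 1.88% and 1.65%. For the other peaks, an exact p under 0.05 was found for Atp1b1 against sham (8.71% of all genes) and for Atp1b1 and Clasp2 against contralateral (11.1%), and for none between contralateral and sham (3.53%). For the share, it was found in 2 of 8 genes for ipsilateral against sham (4.95%) and in none for ipsilateral against contralateral (5.19%) or contralateral against sham (1.18%); no share was without overlap in the last 2 comparisons either (1.65% and 1.41%). For the summed exonic tags, Atp1b1 passed against sham (8.94%), Atp1b1 and Purg against contralateral (10.8%), and none between contralateral and sham (2.35%). No summed level was without overlap (3.06%, 3.06% and 2.35% of all genes). In all, 9 of 105 exact tests over the 8 genes (8.57%) had an unadjusted p under 0.05, and the p adjusted over all genes was at least 0.422 for the 8 of them other than the Dpysl2 match peak, for which it was not computed. The share result of Fem1b was under 0.05 without 1 library only when sham replicate 5 was left out (exact p from 0.0357 to 0.107), and that of Atp1b1 only when sham replicate 2 was left out (exact p from 0.0357 to 0.107).

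**Figure D4:**
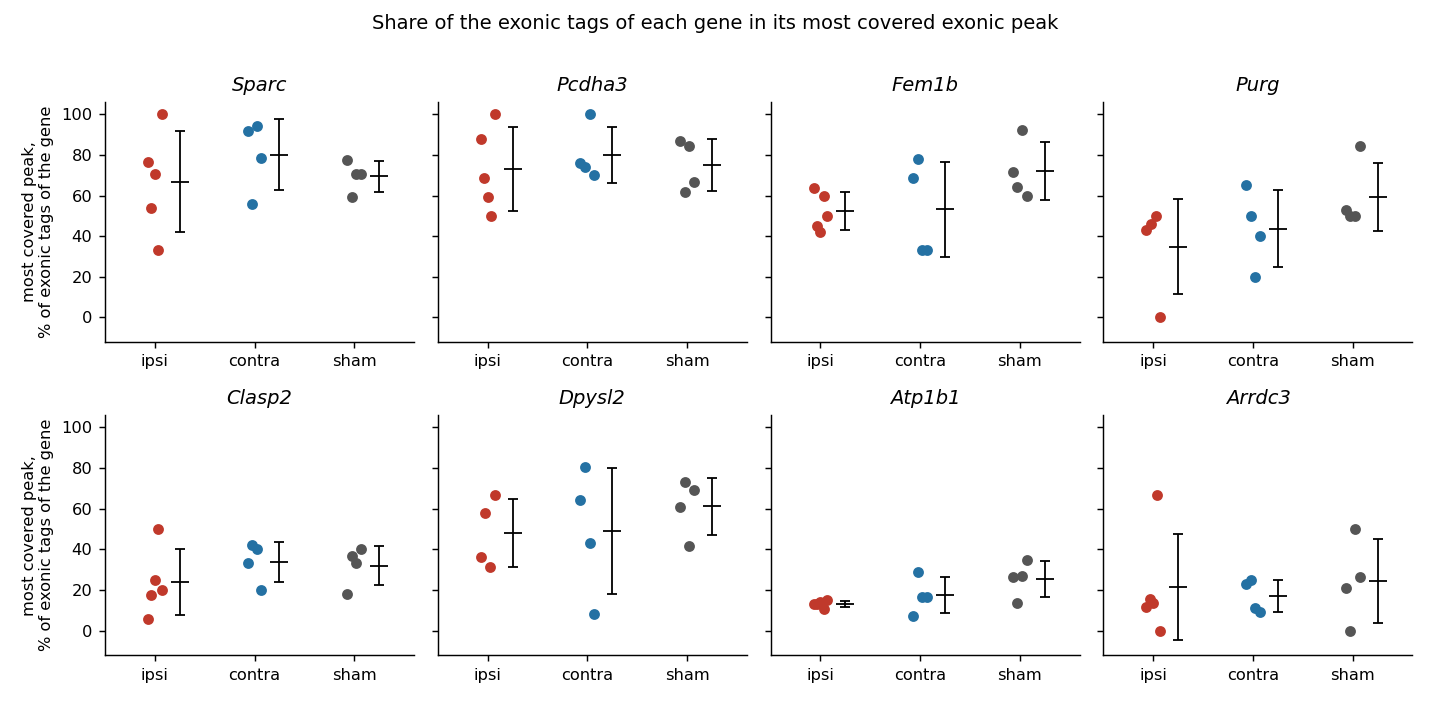
Share of each gene's exonic tags that lay in its most covered exonic peak (y axis, percent), 1 circle per library by group, with mean and SD in black; libraries with no exonic tag of the gene are left out. Fem1b and Atp1b1 have the lowest unadjusted p between ipsilateral and sham libraries, and no gene's groups are separate.

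Fitted over all peaks, no such shift was called. In edgeR's test of each peak against the rest of its gene, 0 of 6048 peaks (0%) had an adjusted p under 0.05 in each of the 3 comparisons, while 227 had an unadjusted p under 0.05 for ipsilateral against sham, 263 for ipsilateral against contralateral and 173 for contralateral against sham. The most covered peaks of the 8 genes had log2 differences from the rest of their gene of -0.996 to -0.0142 for ipsilateral over sham. All were negative in this fit, with an edgeR adjusted p of 1, though Sparc (-0.0158) and Pcdha3 (-0.0142) were near 0. The negative ones were 6 of 8 with all peak tags as library size. They were also 6 of 8 without sham replicate 1, ipsilateral replicate 2 or ipsilateral replicate 4. As single features among 1136 exonic peaks, the 8 most covered peaks had log2 fold changes of -0.92 to -0.19 for ipsilateral over sham (edgeR adjusted p from 0.787 to 0.957). This shared sign depended on single libraries. Without sham replicate 1, sham replicate 5, ipsilateral replicate 2 or ipsilateral replicate 4, 7 of 8 were negative. The highest log2 fold change was 0.482 without sham replicate 1. In the fit of all 13 libraries, 0% of peaks were called for ipsilateral against sham, 0.264% for ipsilateral against contralateral and 0% for contralateral against sham, none of them among the 8. The counts at an unadjusted p under 0.05 were 92, 100 and 23 in the same order, and DESeq2 called 0 in each.

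Summed over the exons of each gene, none of the 8 passed the test in any comparison, and 0.452% of the 442 genes tested were called for ipsilateral against sham, 0% for ipsilateral against contralateral and 0% for contralateral against sham. Atp1b1 came closest. Its sum was 34.8, 43.0, 59.5, 40.9 and 74.1 per 10000 exonic tags in ipsilateral, 30.7, 30.2, 32.5 and 42.9 in contralateral, and 26.3, 26.2, 18.2 and 42.0 in sham libraries, so that only sham replicate 5 reached into the ipsilateral range. The log2 fold change was 0.71 ± 0.23 (SE) for ipsilateral over sham (edgeR adjusted p = 0.238) and 0.52 ± 0.23 for ipsilateral over contralateral (edgeR adjusted p = 0.374). With the replicate block the first was 0.79 ± 0.22 (edgeR adjusted p = 0.109). The other 7 genes had log2 fold changes of -0.49 (Purg) to 0.08 (Arrdc3) for ipsilateral over sham and -0.80 (Purg) to 0.43 (Clasp2) for ipsilateral over contralateral. Contralateral over sham ran from -0.45 (Dpysl2) to 0.53 (Arrdc3), with an edgeR adjusted p of 1 for all 8. Scaling by all peak tags in place of exonic tags moved the median of all genes to 0.17 for ipsilateral over sham and 0.20 for contralateral over sham, and left Atp1b1 uncalled.

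**Figure D5:**
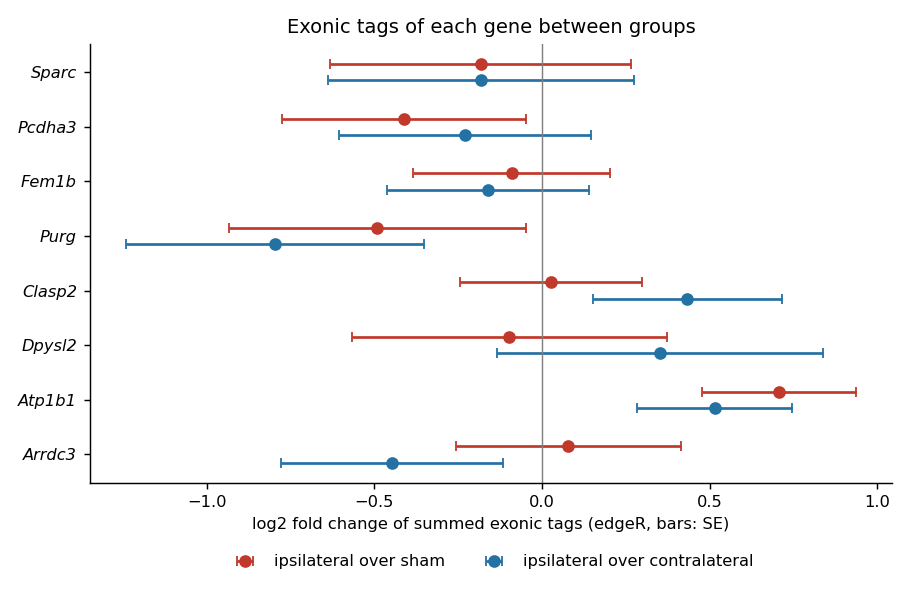
Log2 fold changes of summed exonic tags (x axis, edgeR, bars are SE) for the 8 genes, ipsilateral over sham in red and ipsilateral over contralateral in blue. Atp1b1 lies highest for ipsilateral over sham (0.71) and Purg lowest for ipsilateral over contralateral (-0.80); no gene had an adjusted p under 0.05.

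Related genes were counted from lists of partners and families. No listed gene was called in any comparison. Of 49 known miR-29 targets, 22 had exonic tags and 7 were tested, Sparc among them. For ipsilateral over sham, 6 of the 7 had a negative log2 fold change, while 52.3% of all 442 genes were negative (median -0.33, against -0.03). For ipsilateral over contralateral 6 of the 7 were negative (50.5% of all genes). For contralateral over sham 2 of the 7 were negative (52.9%). The most covered targets were the glutamate transporter gene Slc1a2, Sparc and the signalling subunit gene Pik3r1. Among 28 matrix genes, 15 had tags and 4 were tested (median -0.02 for ipsilateral over sham); Sparcl1, a secreted relative of Sparc, averaged 40.7 ± 8.18 in ipsilateral and 28.1 ± 6.83 per 10000 exonic tags in sham libraries (edgeR adjusted p = 0.558). Of 21 cytoskeletal partners, 12 had tags and 8 were tested, with a median of -0.13 for ipsilateral over sham; Map2, Map1b and Kif5a led them. Fem1b and Purg were joined by Purb alone in their families, at 11.8 ± 8.00 in ipsilateral and 7.56 ± 3.28 in sham libraries, and Arrdc3 was the only alpha-arrestin with tags.

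Across the 13 libraries, the genes most like Sparc in level (log2 of tags per 10000 exonic tags plus 1, among 431 genes with at least 100 exonic tags) were Anks1b, Skil, Lars2, Celf2 and Ralgapa1, with Pearson r of 0.82, 0.81, 0.79, 0.73 and 0.72. Pcdha3 (0.63, place 11), Purg (0.63, place 15) and Arrdc3 (0.45) were also positive, Atp1b1 (-0.05) and Dpysl2 (-0.12) near 0, and Fem1b (-0.28) and Clasp2 (-0.68) negative; Clasp2 was at place 422 of 431. All values share libraries and the high level of Sparc in replicate 1, so they are a description. AGO-bound miR-29b-3p averaged 25.6 ± 16.1 in ipsilateral, 20.2 ± 7.03 in contralateral and 24.7 ± 6.64 in sham libraries per 10000 miRNA tags. For miR-29a-3p the means were 11.1 ± 6.11, 11.7 ± 7.95 and 12.6 ± 7.03 in the same order, and for miR-29c-3p 1.74 ± 1.96, 2.34 ± 2.01 and 4.54 ± 2.73; the ranges of the groups overlapped for all 3.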

How the data were processed

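The authors deposited whole-number counts of AGO CLIP tags per 80-base peak and per miRNA in 13 libraries, with a gene and a region for each peak. Alignment with Novoalign to mm10 is recorded in the submitters' processing notes; no source used here names the peak caller or how duplicate tags were handled. Exonic peaks were those whose deposited region names an untranslated region, coding sequence or exon. Counts were summed per gene and scaled to 10000 exonic tags of the library. Group tests used edgeR 4.0.16 quasi-likelihood fits in R 4.3.3 with TMM factors over all 13 libraries and Benjamini-Hochberg adjustment at 0.05: gene sums passing filterByExpr, exonic peaks with at least 30 tags, and diffSpliceDGE for peaks with at least 10 tags against the rest of their gene. Single values were compared by exact two-sided permutation over libraries (scipy 1.17.1), adjusted over all genes with at least 100 exonic tags where stated. DESeq2 1.42.0 and other alternatives are in the closing section. The fits were tested on simulated data. The p-values measure the spread between these libraries only.

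The members, gene lists and tests were chosen with earlier results of these data known. All 8 genes are named, their main peak being the exonic peak with most tags; for Sparc the 5 genes most like it are named, and of each list the 3 genes with most tags. Replicate numbers mark a distinct day of surgery, per the labels' design text, so they pair the libraries; deviations of 11 same-numbered pairs correlated by 0.012 to 0.532 (10 over 0.1), with a median of 0.226, against -0.0769 for other pairs. Chosen after seeing the data were the miR-29 match peak shares, the settings without ipsilateral replicates 4 and 5, and all alternatives for the Purg sum, the other Atp1b1 and Clasp2 peaks, the Dpysl2 match peak and single Atp1b1 peaks. The list of sodium pump genes is not reported here.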

Additional observations from a re-analysis of the deposited data

Results flagged for a closer look

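Of 96 groups of 4 or 5 libraries examined, 9 held a library far from the others, and chance gives about 1 in 20. In sham replicate 1 the most covered peak of Sparc was at 41.4 tags per 10000 exonic tags, with the nearest sham library at 16.2, and all exonic Sparc tags were at 53.3, with the nearest at 23.0. The same library had the lowest level of the most covered Clasp2 peak, 2.05, against 4.48 in the nearest. The most covered Fem1b peak stood at 12.9 in ipsilateral replicate 4, with the nearest library at 7.41. All exonic Fem1b tags stood at 32.5 in contralateral replicate 4, with the nearest at 14.3, and all exonic Dpysl2 tags at 30.9 in contralateral replicate 2, with the nearest at 14.4. Shares in the most covered peak set apart ipsilateral replicate 5 for Purg (0% of a single tag, nearest 42.9%), sham replicate 5 for Purg (84.6%, nearest 52.6%) and ipsilateral replicate 4 for Arrdc3 (66.7% of 3 tags, nearest 15.4%).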

How the results depend on the processing

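No member that was tested was called by edgeR or DESeq2 under any alternative; 5 of the 8 were tested in the peak fits with filterByExpr and in the usage fits with at least 30 tags per peak, 7 in some fits with libraries left out or only 2 groups, and DESeq2 gave 6 an adjusted p for gene sums of ipsilateral against contralateral. Genes called for ipsilateral against sham numbered 2, and 1 without TMM factors, with all peak tags as library size, with the replicate block, with only the 2 groups fitted or with 3'UTR peaks only; they were 4 without replicate 1, 5 by DESeq2, 0 with introns included and 0 to 9 with single libraries left out. Against contralateral they numbered 0, and 1 with all peak tags, 5 with the replicate block, 7 without replicate 1, 8 with no filter, 6 by DESeq2 and 0 to 15 with single libraries left out (15 without ipsilateral replicate 1). For contralateral against sham the count was 0, and 1 with no filter. Single peaks called for ipsilateral against sham were 0, and 1 with all peak tags or without replicate 1, 3 with no filter and 0 to 2 with single libraries left out. Against contralateral they were 3, and 0 with only the 2 groups, filterByExpr or DESeq2 and 0 to 4 with single libraries left out.

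Shares with an exact p under 0.05 for ipsilateral against sham were 2 of 8 genes, and 1 with 3'UTR peaks only, with peaks within 100 bases added or with the miR-29 match peak; they were 0 with the replicate block, without replicate 1 or without ipsilateral replicates 4 and 5, where the smallest possible exact p (0.125 with the block, 0.0571 for the others) allows no count, and 0 to 1 with single libraries left out (for ipsilateral against contralateral, 0 to 1 against 0). Genes of 8 with a lower mean share ran from 6 to 8, 5 to 8 and 4 to 7 in the 3 comparisons.

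Signs turned for uncalled log2 fold changes of ipsilateral over sham: Fem1b was 0.15 with all peak tags and 0.0134 with introns, Clasp2 -0.0609 with the replicate block and -0.0717 with 3'UTR peaks, and Dpysl2 0.0481 with all peak tags and 0.0512 without replicate 1. With introns, ipsilateral over contralateral was 0.11 for Purg and 0.27 for Arrdc3. Share differences turned to 5.69 (Sparc) and 3.93 (Pcdha3) points with the replicate block, whose pairs leave out ipsilateral replicate 4, and to 1.95 (Atp1b1) and 5.0 (Arrdc3) with the miR-29 match peak. With single libraries left out, ranges across 0 for ipsilateral over sham were -0.68 to 0.41 (Sparc), -0.163 to 0.00668 (Fem1b), -0.0414 to 0.126 (Clasp2) and -0.41 to 0.19 (Dpysl2). For ipsilateral over contralateral they were -0.66 to 0.025 (Sparc) and -0.32 to 0.16 (Fem1b). Share ranges were -11.0 to 5.69 (Sparc), -8.57 to 3.93 (Pcdha3) and -14.1 to 5.70 (Arrdc3) points. The cause was not tested. A count of 0 allows up to 6.45 and 11.1 tags per 10000 exonic tags in ipsilateral replicates 4 and 5.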
